A study of Arabidopsis thaliana with 116 samples.

Results

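The 116 recombinant inbred lines of Arabidopsis thaliana in this series were grouped by the signal of the probe set for AT2G28130, a gene of chromosome 2 that the files name only by its locus code. The lines were divided at the point in that signal that leaves the smallest sum of squares within the groups, which gave 60 upper lines and 56 lower lines, all 116 of 116. The upper lines comprised 29 with a name starting with Q and 31 with a name starting with R, and the lower lines comprised 30 Q and 26 R lines. Every line descends from reciprocal crosses between the accessions Col-0 and C24, and no sample of either accession enters the comparison. The labels do not say which letter stands for which direction of the cross. The letter was therefore used as a covariate and to compare results between letters, without naming a direction. Each sample was RNA from 200 mg of developing seeds taken 10 to 11 days after flower opening, with 8 siliques from each of 6 plants pooled, and was measured on 1 array. A line therefore has no replicate of its own, and each p-value is set against the spread between lines.

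A recombinant inbred line is made by repeated selfing after a cross, so that each stretch of chromosome becomes homozygous for one parent or the other. Genes close together on a chromosome are usually inherited together, and a split of the lines at one gene is then also a split by parental origin of its neighbourhood, which weakens with distance as crossovers accumulate. Transcripts encoded near such a place are called linked here, meaning on chromosome 2, and transcripts of the other 4 nuclear chromosomes unlinked. At this age Arabidopsis seeds are passing from growth into maturation, when the embryo fills with storage protein and oil and begins to express late embryogenesis abundant (LEA) proteins, which are associated with tolerance of drying.

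In the upper lines the lowest, median and highest AT2G28130 signals were 7.96, 8.67 and 9.22 log2, against 6.45, 7.30 and 7.74 log2 in the lower lines. The mean was 8.66 ± 0.268 in upper lines and 7.25 ± 0.259 in lower lines (SD, n = 60 and 56), 1.42 log2 or 2.67-fold apart, and the split held 87.996% of the variance of this probe set. These values chose the groups and are given as a description without a test. The gap between the groups was 0.23 log2. Just inside the upper group lay R155 at 7.96, Q016 at 8.11 and R123 at 8.17, and just outside it lay Q013 at 7.74, R069 at 7.64 and Q072 at 7.61. A mixture of 2 normal distributions placed the modes 5.40 SD apart and left 1 line, R155, uncertain. In upper lines the median was 8.67 for Q and 8.66 for R lines, and in lower lines it was 7.31 for Q and 7.28 for R lines. A probe set value does not tell a difference in transcript level from a difference in sequence under the probes, and this holds for each linked gene described below.

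**Figure D1:**
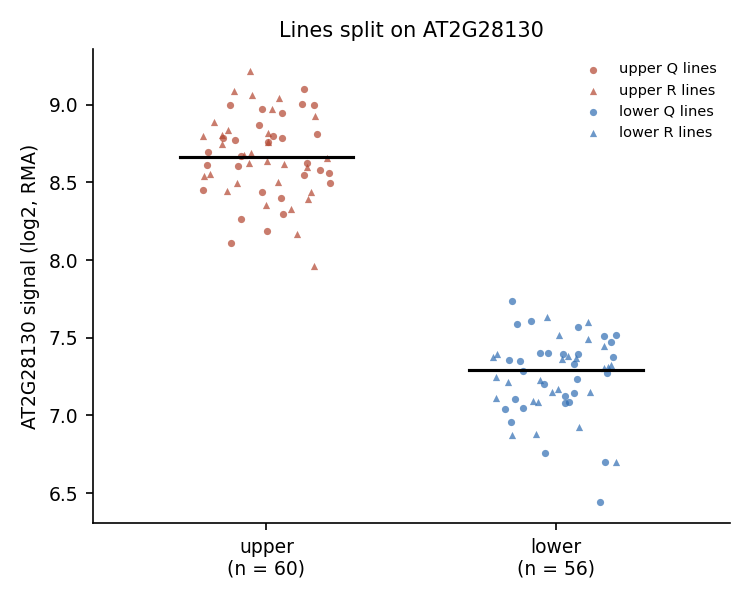
AT2G28130 signal (log2, RMA) of each line, with upper lines on the left and lower lines on the right, circles for Q lines and triangles for R lines; black bars are medians. The groups are separated by 0.23 log2 by construction, and both letters occur throughout each group.

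Upper and lower lines were compared over the 22745 other probe sets with limma, with the letter as a covariate and Benjamini-Hochberg adjustment over all of them; a probe set is called here when its adjusted p is under 0.05. The comparison called 912 probe sets, 4.01% of those tested, with 405 higher (1.78%) and 507 lower (2.23%) in upper lines. In 0 of the 22745 probe sets did the ranges of upper and lower lines fail to overlap. Genes of chromosome 2 accounted for 231 calls among 2199 probe sets, or 10.5%. Genes of the other nuclear chromosomes accounted for 263 among 11167, or 2.36%, and 1 of 69 organelle probe sets was called. Of the rest, 401 of 8730 probe sets without a gene name, 14 of 503 with several genes and 2 of 77 without a place in the gene order were called and are not described further.

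Linked genes were called most often around AT2G28130, in both directions. Distance was counted in places, that is in consecutive annotated genes along the chromosome, since the files name no genome build. Within 600 places on either side, 110 of 450 probe sets (24.4%) were called, 60 higher and 50 lower in upper lines, with a median size of 0.23 log2 among those called. On the rest of the chromosome 121 of 1749 (6.92%) were called, 66 higher and 55 lower. On the side of lower locus numbers the share called was 19.8% within 200 places, 32.2% from 200 to 600 places, 17.2% from 600 to 1000, 12.02% from 1000 to 1500, 3.83% from 1500 to 2000 and 1.31% beyond. On the side of higher locus numbers the shares over the same distances were 18.9%, 21.9%, 10.8%, 10.7%, 7.29% and 3.51%. The share was thus not greatest in the innermost 200 places, and past 2000 places it lay near or under the 4.01% of all probe sets.

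**Figure D2:**
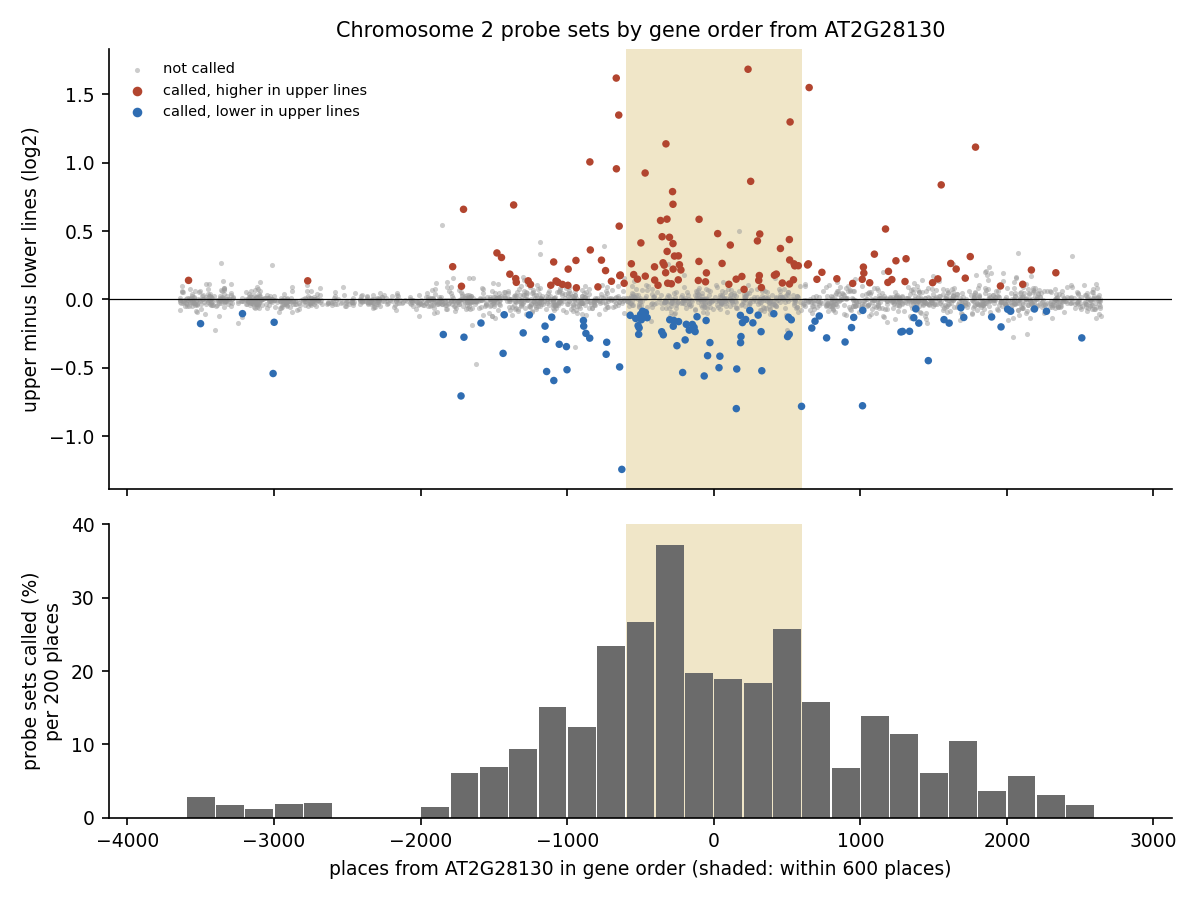
Upper minus lower difference (log2) of each chromosome 2 probe set against its distance from AT2G28130 in places (top), and the percentage of probe sets called in each stretch of 200 places (bottom); the shaded band is within 600 places. Called differences of both signs crowd around the centre and thin out on both sides, and the tallest bar lies between 200 and 400 places on the side of lower locus numbers.

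The 5 closest genes with a named probe set on each side of AT2G28130 did not pass the test. On the lower side these were AT2G28090, AT2G28080, AT2G28060, AT2G28030 and AT2G28010. On the higher side they were AT2G28200, AT2G28240, NCRK, AT2G28270 and AT2G28310, and all 10 lay within 24 places. AT2G27980, the other named gene within 24 places, was not called either (0.06). Probe sets without a gene name (8730, of which 401 were called) have no place here, so calls among closer genes would not be seen. The differences of the 10 lay between -0.07 (AT2G28080) and 0.11 (NCRK, a receptor-like kinase gene), with SEs up to 0.0523 (AT2G28200) and adjusted p-values of 0.108 for AT2G28310 and more (limma). AT2G28060, a regulatory subunit of the energy-sensing kinase SnRK1, had 7.66, 8.01 and 8.25 log2 as its lowest, median and highest value in upper lines, against 7.48, 8.00 and 8.34 in lower lines. The zinc finger gene AT2G28200 had 7.54, 8.36 and 9.00 in upper lines, against 7.81, 8.39 and 8.82 in lower lines. For both genes the ranges nearly coincided. Of the others, AT2G28310 was called with the AT2G28130 signal as a continuous score (difference 0.12, adjusted p = 0.00714) and AT2G28080 with 10 principal components as covariates (-0.13, adjusted p = 0.0128).

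The smallest adjusted p among named genes was that of AT2G28330, 27 places away, a gene of the SIAMESE-related family, whose members inhibit the cell cycle in plants. Its lowest, median and highest values were 6.46, 6.88 and 7.21 log2 in upper lines, against 6.03, 6.39 and 6.70 in lower lines. Only 7 of 60 upper lines lay within the range of the lower lines. The difference was 0.48 ± 0.0278 log2 (SE; 1.40-fold; limma, adjusted p = 4.24e-30), and the split accounted for 72.7% of the variance left by the letter. AT2G28400, an S40-like gene 36 places away that was picked after its value was seen, differed by -0.50, with medians of 6.82 in upper and 7.38 in lower lines (adjusted p = 1.01e-11).

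Further genes within 600 places that followed the split closely include putative organelle proteins, enzymes and regulators. AT2G25870, a gene of the YbeY ribosome maturation type, had 6.24, 7.11 and 7.44 log2 in upper lines, against 5.98, 6.31 and 7.26 in lower lines, a difference of 0.70 ± 0.0421 (adjusted p = 1.47e-28); its other probe set differed by 0.41 and was also called. AT2G25830, a YebC-like gene, had 4.52, 5.45 and 6.06 in upper lines, against 4.19, 4.62 and 5.71 in lower lines, a difference of 0.79 ± 0.0537. In both genes 52 of 60 upper lines lay inside the range of the lower lines, so the centres of the groups lay apart while their extremes overlapped. AT2G29340, a gene of the tropinone reductase-like dehydrogenases, was lower, with 6.76, 7.46 and 8.38 in upper lines, against 7.16, 8.36 and 8.86 in lower lines (-0.80 ± 0.0569, adjusted p = 2.14e-23). AT2G26450, a gene of the pectin methylesterase family, which modifies cell wall pectin, had 4.63, 4.95 and 5.69 in upper lines, against 4.89, 5.55 and 6.02 in lower lines (-0.53 ± 0.0398). Here 39 of 60 upper lines lay inside the lower range. AT2G27790 differed by -0.41, and 15 of 60 upper lines lay inside the lower range.

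Other strongly associated neighbours were higher in upper lines. AT2G27340, a gene of glycosylphosphatidylinositol anchor synthesis, differed by 0.59, the storekeeper-related gene AT2G25650 by 0.45, AT2G29020 by 0.40 and the protein kinase gene AT2G24360 by 0.41 log2, with adjusted p-values of 3.55e-19 (AT2G24360) and less. AFR, an F-box gene of far-red light signalling, had 5.79, 7.15 and 7.79 log2 in upper lines, against 5.58, 6.02 and 7.67 in lower lines, a difference of 0.92 ± 0.0781. AFR was itself bimodal over the lines, and its extreme lines in each group lay in the other group's mode. Among genes within 600 places 16 of the called differences were of 0.5 log2 or more.

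AT2G25450 belongs to the same stretch, 326 places from AT2G28130. It is known as GSL-OH, an oxygenase that hydroxylates the side chain of aliphatic glucosinolates, the sulfur-rich defence compounds of the cabbage order. Its lowest, median and highest values were 9.45, 10.84 and 11.52 log2 in upper lines, against 8.14, 9.59 and 10.95 in lower lines. The fitted difference was 1.14 ± 0.0948 log2 (SE; 2.20-fold; adjusted p = 6.08e-19), and 34 of 60 upper lines lay within the lower range. None of the 5 other glucosinolate genes named on the array was called. These were AT2G31790 (0.12), a glucosyltransferase gene also on chromosome 2, UGT74B1 (0.06), the chain elongation gene BCAT4 (0.06) and the transporter genes GTR1 (0.01) and GTR2 (-0.08).

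Lines in which the splits of AT2G28130 and of a neighbouring bimodal gene disagreed were used to see which split a transcript followed. Such lines are called recombinant here. No genotypes were used, so a line placed in the wrong mode counts as recombinant as well as one with a crossover. Recombinant lines between AT2G28130 and AFR numbered 14 of 116 (12.1%), 6 of them upper at AT2G28130 and lower at AFR. AT2G28330 had a median of 6.93 log2 in those 6 lines, close to 6.86 in the 54 lines that were upper at both genes. In the 8 lines that were lower at AT2G28130 and upper at AFR its median was 6.40, against 6.39 in the 48 lines that were lower at both. AT2G25450 behaved otherwise. Its median was 10.20 in the 6 lines upper only at AT2G28130 and 10.69 in the 8 lines upper only at AFR, with 10.87 in lines upper at both and 9.49 in lines lower at both. The strongest split of AT2G28330 among all bimodal genes was AT2G28130, and that of AT2G25450 was AFR. Among recombinants between AT2G28130 and AT2G29995, on the other side, AT2G28330 again stayed with AT2G28130, at a median of 6.88 in the 8 lines upper only at AT2G28130 and 6.39 in the 6 lines upper only at AT2G29995. AT2G28330 was named for its p at the AT2G28130 split over these same lines, which favours its staying with that split. The medians describe small numbers of lines and were not tested.

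Farther along chromosome 2 large differences continued, with more lines out of place. AT2G33220, a subunit of mitochondrial complex I of the GRIM-19 type, 651 places away, had 6.27, 8.97 and 9.42 log2 in upper lines, against 6.07, 6.80 and 9.35 in lower lines (1.55 ± 0.171, adjusted p = 2.14e-12). The neighbouring genes AT2G23110 and AT2G23120, which encode small LEA-type proteins, were both higher in upper lines. AT2G23120 had 8.74, 10.96 and 11.59 in upper lines, against 8.73, 9.66 and 11.37 in lower lines (0.95), and AT2G23110 differed by 1.62. All 3 genes were bimodal, and their ranges in upper and lower lines covered nearly the same span. Lower in upper lines were the receptor-like kinase gene AT2G23300 (-0.49) and the pentatricopeptide repeat gene AT2G20720 (-0.51), with adjusted p-values of 8.98e-12 for AT2G23300 and 1.46e-11 for AT2G20720.

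Across the chromosome 19 genes, AT2G28130 among them, split the lines into separate modes, and the share of recombinant lines was lowest for the nearest of them and highest at the ends. AFR, 468 places away, and AT2G29995, 234 places away on the other side, each had 12.1% of lines recombinant. AT2G23120 had 16.4%, AT2G33220 18.1% and AT2G35820, 1015 places away, 22.4%. At the ends of the range, AT2G03980 had 43.1% and AT2G43800 38.8%. Upper modes of a pair need not come from the same parent, so a pair was read in whichever phase gave fewer recombinant lines. Read in the same way, the bimodal genes of the other chromosomes had a median of 47.4%, and the lowest of them, AT1G32360, had 41.4%.

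**Figure D3:**
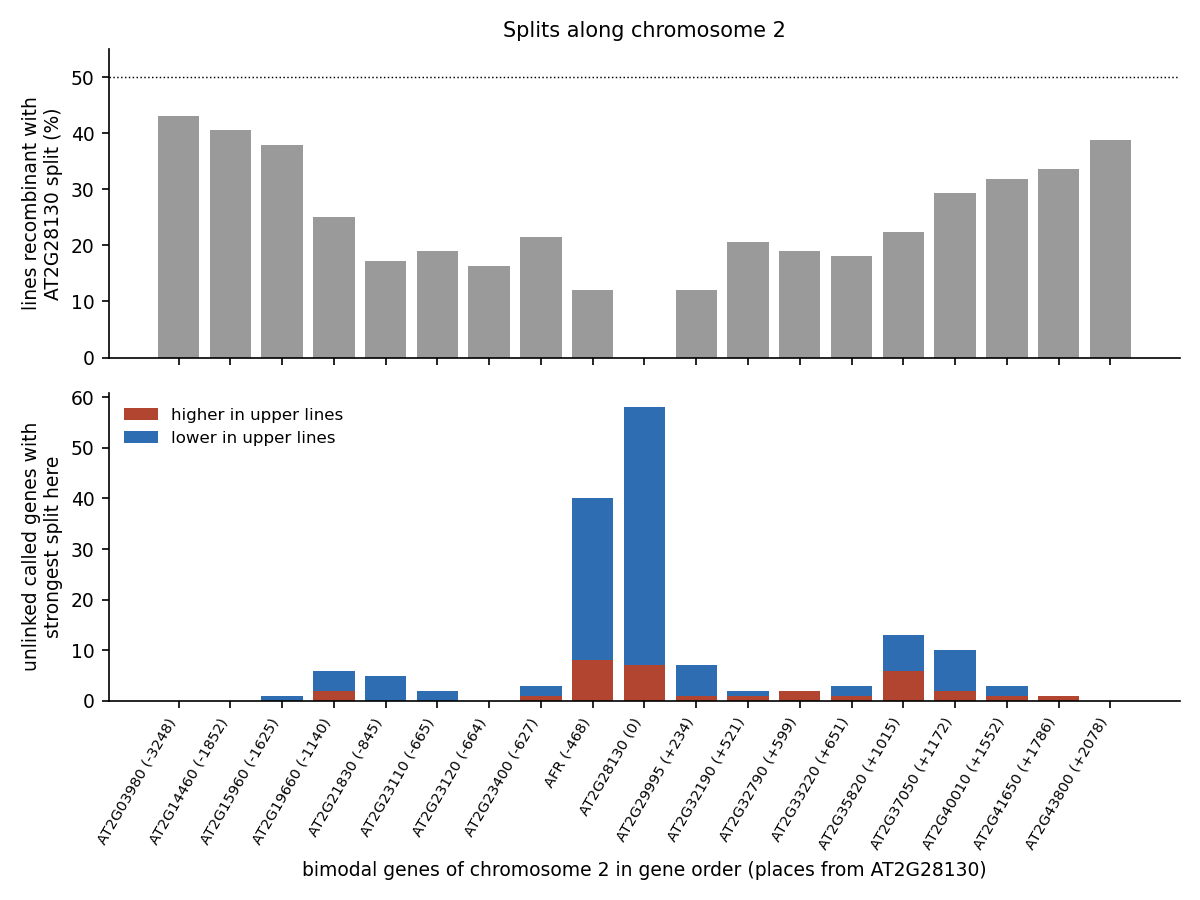
Percentage of lines recombinant with the AT2G28130 split (top; the dotted line marks 50%) for the 19 bimodal genes of chromosome 2 in gene order, and the number of called genes of other chromosomes whose strongest split was each of them (bottom), stacked by direction. The share of recombinants is lowest beside AT2G28130, and the tallest lower bars are those of AT2G28130 with 58 and AFR with 40 genes. The genes counted were called for the AT2G28130 split, which favours it and its neighbours.

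Genes of the other chromosomes that were called tended to be lower in upper lines and to differ little. Of the 263, 195 were lower (1.75% of those tested) and 68 higher (0.609%), so 74.1% of the calls were lower. With each array's median subtracted 150 were lower and 87 higher among 237, which is a smaller majority. Their median size was 0.14 log2, 41 reached 0.25 log2 and 2 reached 0.5 log2. The calls were spread evenly, with 82 on chromosome 1, 65 on chromosome 3, 46 on chromosome 4 and 70 on chromosome 5, or 2.33% to 2.38% of the probe sets of each. Without R162, the array that correlated least with the others (median correlation 0.973, against 0.986 over all arrays), 223 were called, of which 2 were not among the 263.

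Since the split was not the only one these transcripts could follow, each was also compared with the splits at all 124 bimodal nuclear genes. The strongest split lay on chromosome 2 for 156 of the 263 (59.3%), 33 of them higher and the rest lower, and within 600 places of AT2G28130 for 109. AT2G28130 itself was the strongest for 58 and AFR for 40. The 263 were chosen by their difference at AT2G28130, whose split stayed among the 124, so a strongest split there or nearby is favoured. For 43 genes the strongest split lay on chromosome 4, for 36 on chromosome 1, for 19 on chromosome 5 and for 9 on chromosome 3. Adding the splits of AT4G02540 and AT1G23960 as covariates left 1.48% of unlinked probe sets called, in place of 2.36%, and 3 of those genes were not among the 263. With 10 principal components as covariates the share was 0.949%, and 51 of the genes called were among the 263. These components were computed from the unlinked probe sets themselves. They can therefore take up a difference that many unlinked genes share at the split, and a lost call is not an independent check.

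The unlinked genes with the strongest statistics were mostly lower in upper lines. AT4G25800, of the CBP60 family of calmodulin-binding proteins, had 4.24, 4.57 and 4.89 log2 in upper lines, against 4.52, 4.76 and 5.09 in lower lines (-0.19 ± 0.0252, adjusted p = 2.35e-09). A relative of it on chromosome 2, AT2G24300, 509 places from AT2G28130, differed by -0.21 (adjusted p = 2.22e-07); it was picked after its value was seen, and whether the probe sets share signal was not tested. The strongest split of both was AFR. AT1G14930 and AT1G14940, adjacent genes of the major latex protein-like family, had the largest sizes among unlinked genes. AT1G14930 had 4.05, 5.73 and 7.54 in upper lines, against 4.58, 6.63 and 9.00 in lower lines, a difference of -0.97 ± 0.173 (adjusted p = 2.12e-05). AT1G14940 had 4.51, 5.69 and 8.51 in upper lines, against 5.03, 6.57 and 8.99 in lower lines, a difference of -0.98 ± 0.181. The third gene of the row, AT1G14950, differed by -0.20 (adjusted p = 0.0217), was chosen after its values were seen, and lost its call with the splits of AT4G02540 and AT1G23960 as covariates (adjusted p = 0.0713). These relatives may share signal on the array, which was not tested.

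Other unlinked genes lower in upper lines have varied roles. AT4G11120, which encodes an organelle translation elongation factor of the EF-Ts type, had 6.71, 7.27 and 7.68 log2 in upper lines, against 6.85, 7.53 and 7.80 in lower lines (-0.23, adjusted p = 2.86e-06). AT3G25810, the terpene synthase gene known as TPS24, had 3.94, 4.37 and 5.10 in upper lines, against 4.15, 4.56 and 5.27 in lower lines (-0.25). In both genes more than 50 of the 60 upper lines lay inside the lower range, so the groups differed in their centres and overlapped widely. The sugar transporter-like gene AT4G04760 differed by -0.41, the invertase or pectin methylesterase inhibitor-like gene AT3G17130 by -0.40, AT5G55750 by -0.44, AT5G16380 by -0.25 and the DNA glycosylase-like gene AT5G57970 by -0.15. Their adjusted p-values ran from 6.93e-06 for AT5G16380 to 6.6e-05 for AT3G17130. All 10 of these strongest lower genes kept their calls in each alternative that used lines of both letters and tested them, and 7 of the 10 were not called within Q lines alone.

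Fewer unlinked genes were higher in upper lines. AT3G26800 had the smallest adjusted p of all unlinked genes, with 4.49, 5.03 and 5.53 log2 in upper lines, against 4.02, 4.65 and 5.20 in lower lines (0.33 ± 0.0414, adjusted p = 3.47e-10). AT5G13600, of the NPH3 family known for light signalling, had 5.85, 6.78 and 7.28 in upper lines, against 5.87, 6.50 and 7.09 in lower lines (0.24). The dehydrin-type gene AT4G38410 had 6.15, 7.28 and 8.54 in upper lines, against 6.27, 6.91 and 7.80 in lower lines (0.33). In each of these the medians differed while most upper lines lay inside the lower range. The actin gene ACT11 was higher by 0.34 and the LURP-one-like gene AT5G01750 by 0.21. CaS, a thylakoid protein of calcium sensing, was higher by 0.26, and CHLM, a methyltransferase of chlorophyll synthesis, by 0.18. AT1G28100 (0.15), AT4G02170 (0.14) and AT1G16360 (0.09) completed the 10 strongest, with adjusted p-values up to 0.00754 (AT1G28100). AT4G02170 (medians 3.67 in upper and 3.56 in lower lines) and AT1G16360 (4.02 and 3.92) lay near the low end of the scale. The strongest split was AT2G28130 for AT5G13600, CHLM and AT1G16360. Elsewhere on chromosome 2 it was AFR for AT3G26800, AT2G33220 for ACT11, AT2G35820 for CaS and AT2G41650 for AT1G28100. On other chromosomes it was AT5G21070 for AT4G38410, AT5G03420 for AT5G01750 and AT4G02540 for AT4G02170. With 10 principal components as covariates ACT11, AT1G28100, AT5G01750, AT5G13600 and CHLM were no longer called. At the split of AT2G29995 AT1G16360 and AT5G01750 (adjusted p = 0.263) were not called, and at that of AFR AT1G16360 was not. Within Q lines alone 8 of the 10 were not called, and within R lines alone 5 of the 10.

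**Figure D4:**
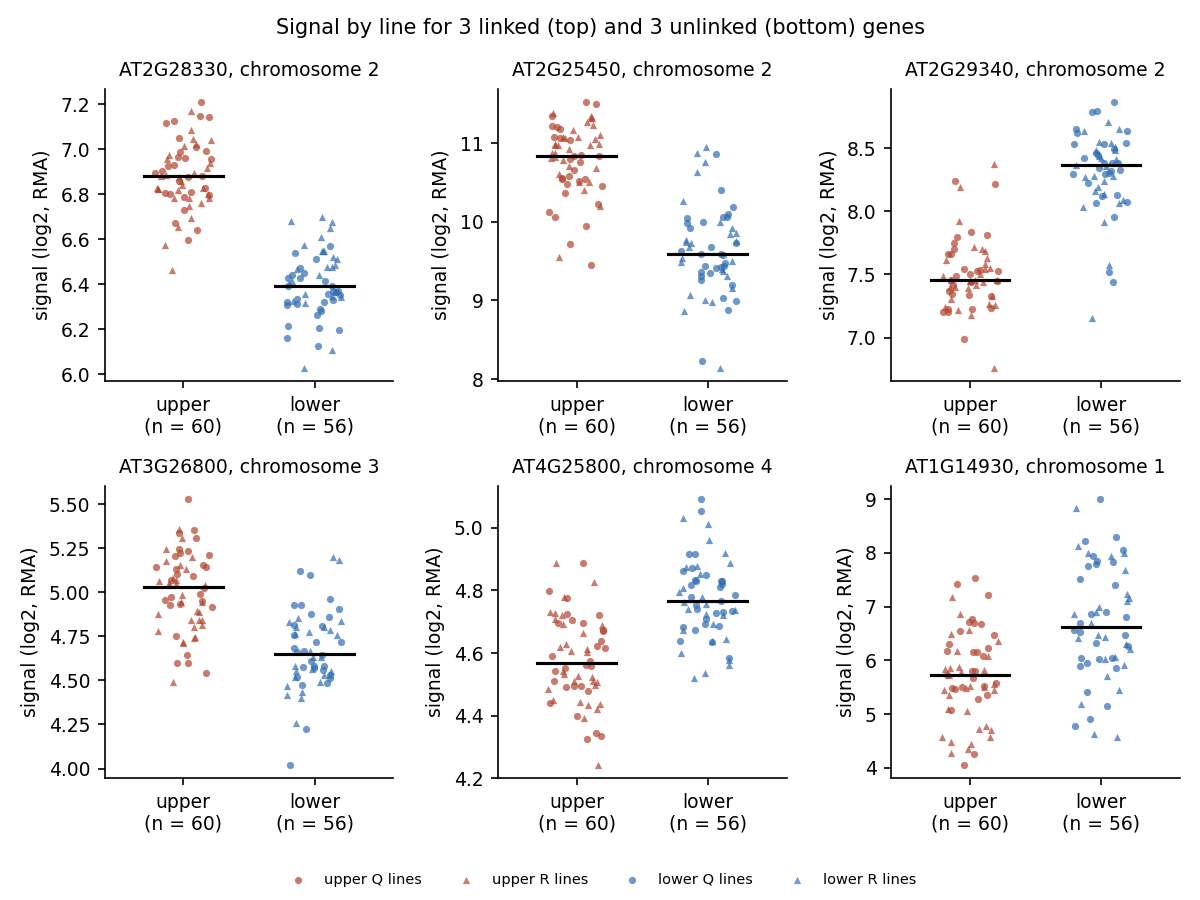
Signal (log2, RMA) of each line for the linked genes AT2G28330, AT2G25450 and AT2G29340 (top) and the unlinked genes AT3G26800, AT4G25800 and AT1G14930 (bottom), with upper lines left of lower lines, circles for Q and triangles for R lines, and black bars for medians. The medians of the linked genes lie farther apart relative to the scatter of lines than those of the unlinked genes, whose groups overlap broadly.

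Gene lists of seed functions were then read against the share called among all probe sets, 4.01%. That share was 24.4% within 600 places of AT2G28130, 6.92% on the rest of chromosome 2 and 2.36% for unlinked genes. It is therefore not a like base for linked and unlinked list members. Of 160 listed genes 46 could be named on the array, so each list stands for a few of its members, and the lists are described by counts without a test. The cell cycle list had 2 of 3 called, both higher in upper lines. AUR2, an Aurora kinase gene that lies 277 places from AT2G28130, had 6.75, 7.08 and 7.51 log2 in upper lines, against 6.49, 6.88 and 7.21 in lower lines (0.22, adjusted p = 5.98e-10). AUR1, the unlinked Aurora kinase gene on chromosome 4, had 5.77, 6.40 and 7.43 in upper lines, against 5.66, 6.25 and 7.15 in lower lines (0.20, adjusted p = 0.0444). The replication gene PRL differed by 0.17 and was not called (adjusted p = 0.205). The median difference of the 3 was 0.20 log2, against -0.0087 over all probe sets. In seeds, a lower signal can come from fewer cells of a type or from less RNA per cell, which these bulk samples cannot tell apart.

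Of 3 photosynthesis genes 1 was called, higher in upper lines, and of 11 LEA genes 3, all lower. LHCB4.1, an antenna protein of photosystem II, had 10.42, 11.14 and 11.78 log2 in upper lines, against 10.07, 10.94 and 11.54 in lower lines (0.17, adjusted p = 0.0296). PORB, of chlorophyll synthesis, differed by 0.23 (adjusted p = 0.111) and RCA, the Rubisco activase gene on chromosome 2, by 0.13 (adjusted p = 0.328). LHCB4.2, not on the list and picked after its value was seen, was higher by 0.20 (adjusted p = 0.024), and lost its call with 10 principal components as covariates (adjusted p = 0.647). The median difference over the LEA list was -0.07. AT4G21020 had 8.84, 10.06 and 10.66 in upper lines, against 9.40, 10.30 and 11.05 in lower lines (-0.31, adjusted p = 0.00106). AT3G15670 differed by -0.45 and the gene with the symbol LEA, on chromosome 2, by -0.15, with adjusted p-values of 0.0317 and 0.0364. LEA4-5 had the highest difference of the list, 0.03, and was not called. The list does not hold AT2G23110 (1.62) and AT2G23120 (0.95) of chromosome 2 nor the dehydrin-type gene AT4G38410 (0.33), which are of LEA type and were called higher, so the calls of LEA-type genes went in both directions.

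Storage and regulatory genes differed little. The storage protein gene AT1G03890 was 1 of 5 called, with 12.82, 13.39 and 13.57 log2 in upper lines, against 13.22, 13.48 and 13.64 in lower lines (-0.10, adjusted p = 0.000934). The vicilin-like gene PAP85 differed by -0.01 and was not called. AT2G25890, an oleosin-type gene of the oil body list, 276 places from AT2G28130, differed by -0.20 (adjusted p = 0.0278). OLEO3 (0.01) and AT3G01570 (0.00) were not called. The maturation bZIP genes EEL (-0.11) and BZIP53 (-0.12) missed the threshold, with adjusted p-values of 0.0616 and 0.0643, and both passed with a filter at a mean of 5 log2. None of the 5 fatty acid genes and of the 1 heat shock gene was called by limma, with differences between -0.10 (AT5G16230) and 0.02 (AT3G02630).

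Markers of other seed and fruit tissues were read as levels, since overlap of ranges, found in every probe set tested, does not tell the groups apart. The mean over 4 seed coat genes ranged from 7.76 to 9.23 log2 in upper lines and from 7.80 to 8.95 in lower lines, with medians of 8.20 and 8.24. The mean over the 2 endosperm genes AGL62 and IKU2 ranged from 3.61 to 4.04 in upper lines and from 3.61 to 4.09 in lower lines. These endosperm values lie near the low end of the arrays' scale, which began at 2.61 log2. ALC, the 1 silique wall marker named on the array, had a median of 5.84 in upper lines, against 5.71 in lower lines. None of these 7 genes was called, and no pollen marker was named on the array. Storage protein genes, which mark a filling embryo, had a mean over 5 members between 11.3 and 11.8 in upper lines and between 11.5 and 11.9 in lower lines, on a scale that reached 14.3. This mean joins unlike levels. AT2G18540 had medians of 5.36 in upper and 5.50 in lower lines, and the group medians of the others lay between 12.90 (AT4G36700) and 13.48 (AT1G03890).

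**Figure D5:**
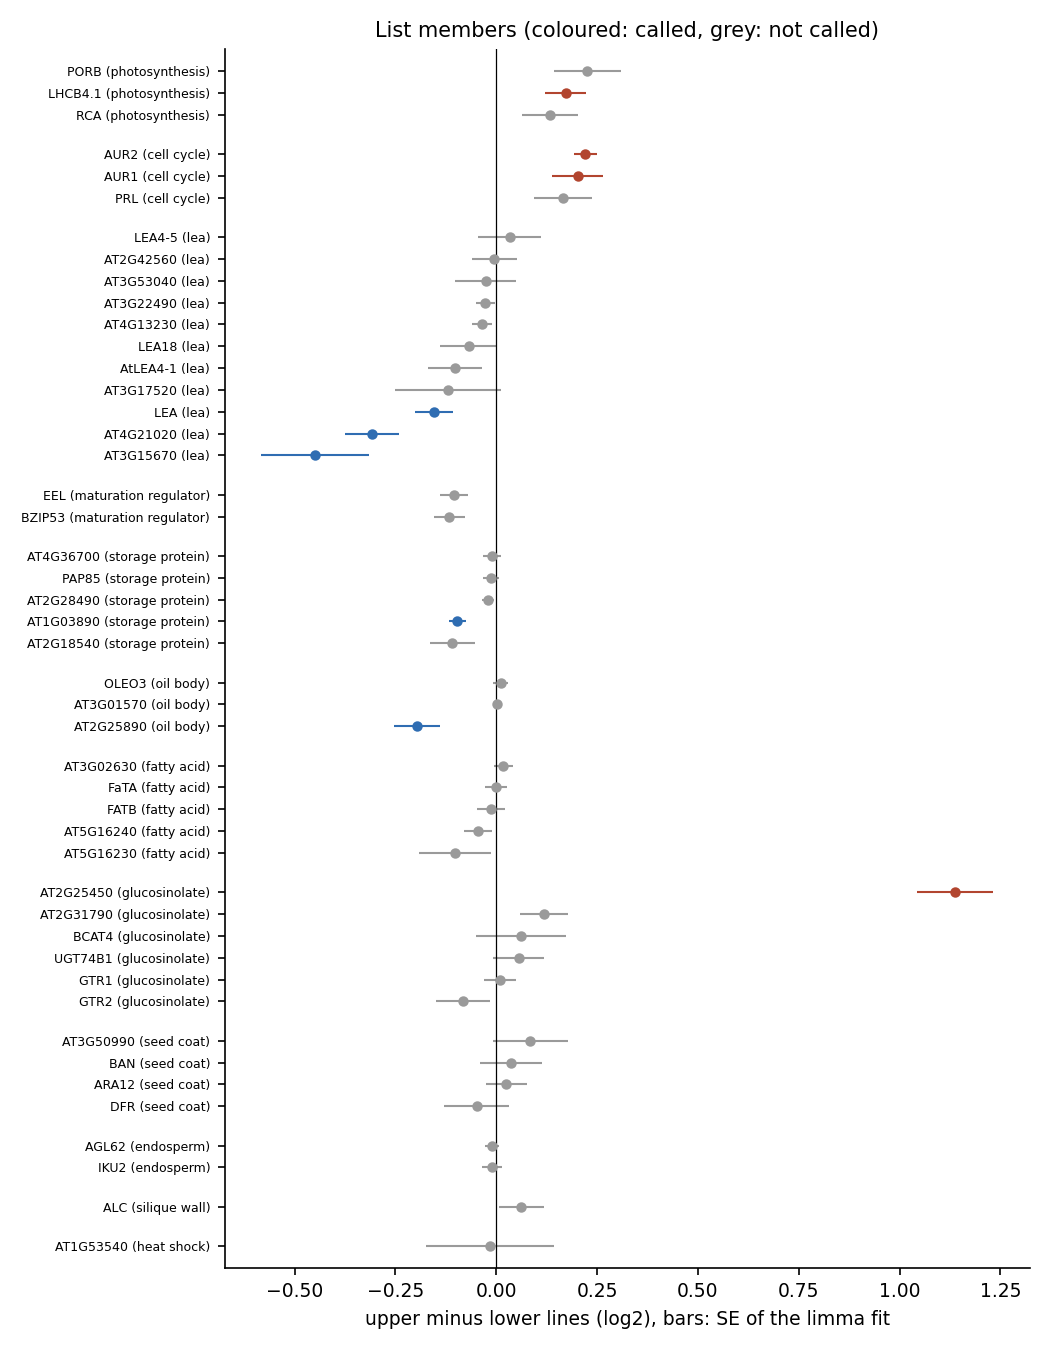
Upper minus lower difference (log2) of each named list member, with bars for the SE of the limma fit; members are grouped by list, and coloured points passed an adjusted p of 0.05. AT2G25450 stands apart at 1.14, and the other called members lie between -0.45 and 0.22.

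Most list calls depended on the setting. Of the 9 called members, AT2G25450 and AUR2 kept their calls with 10 principal components as covariates and at the split of the next bimodal gene, AT2G29995. The other 7 lost them in both. AT2G25450 and AUR2 lie within 600 places of AT2G28130, but so does AT2G25890, 276 places away, which was among the 7 (limma, adjusted p = 0.68 and 0.183). Without array R162 AUR1 (adjusted p = 0.065) and LEA (adjusted p = 0.054) were not called. Principal component 1 of the arrays, computed from the unlinked probe sets, was itself higher in upper lines, by 0.42 SD. This difference did not pass after adjustment over 5 array measures (permutation test, two-sided, p = 0.0216, adjusted p = 0.108). The excess of 3' over 5' signal in control transcripts, which grows as RNA degrades, was 1.08 ± 0.262 in upper lines and 1.04 ± 0.294 in lower lines (SD, n = 60 and 56; permutation test, two-sided, p = 0.418). With it as a covariate AUR1 was the 1 list member that lost its call (adjusted p = 0.058). The part of overall sample differences in these calls was not tested further.

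The differences were also taken within each letter, and the difference between letters was tested with an interaction term. No probe set passed in limma (0 of 22745), 913 (4.01%) had an unadjusted p under 0.05, and the lowest adjusted p was 0.999. Within Q lines alone 87 chromosome 2 probe sets and 9 unlinked ones were called, and within R lines alone 142 and 97. AT2G28330 differed by 0.56 in Q lines and 0.40 in R lines, AT2G25450 by 1.06 and 1.21, and AT4G25800 by -0.21 and -0.18. AT1G14930 differed by -0.78 in Q lines and -1.17 in R lines. The named genes with the smallest interaction p were ZCF37, NdhL, AT2G40020, AT4G32680 and AT5G05090. ZCF37 differed by -0.14 in Q lines and 0.12 in R lines, and AT5G05090 by 0.02 and -0.32.

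Of the 69 organelle probe sets 1 was called, that of rpl22, which encodes a protein of the plastid ribosome. Its lowest, median and highest values were 7.39, 8.78 and 9.59 log2 in upper lines, against 7.49, 8.45 and 9.14 in lower lines (0.26 ± 0.0798, adjusted p = 0.0363). The median difference over the 69 was 0.12 log2, against -0.0087 over all probe sets, and 19 of them (27.5%) had an unadjusted p under 0.05, against 16.1% of all probe sets. The call of rpl22 was lost with the splits of AT4G02540 and AT1G23960 as covariates (adjusted p = 0.0681), with 10 principal components (adjusted p = 0.46) and at the split of AFR (adjusted p = 0.0876).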

How the data were processed

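Seed RNA of 116 lines was measured on 1 array each. Per the submitters' processing notes, the authors used RMA, and the deposited table holds one log2 signal for each probe set and line. RMA gives all arrays a common distribution, which removes differences in total RNA, and it compresses low signals. Its version, the build and array batches were not given in the sources used here. The table held 22810 probe sets; 64 controls and the probe set of AT2G28130 were left out, leaving 22745. Array medians lay between 5.84 and 5.99, and the number of arrays limits the precision. Names came from the platform annotation and a RefSeq gene table of TAIR10.1, which was used for names and gene order only.

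Lines were split on AT2G28130 and compared by limma 3.58.1 (R 4.3.3; lmFit, eBayes) with the letter as covariate, over all probe sets, with Benjamini-Hochberg adjustment and a threshold of 0.05; the code was tested on simulated data. A gene counted as bimodal when a mixture of 2 normal modes placed them 4 SD and 1 log2 apart or more, each mode held a share of 0.2 or more, and BIC improved by 10 or more. A gene's strongest split was the one with the largest moderated t among 124 bimodal nuclear genes. Array measures were compared with 100000 permutations. Python 3.11.15 with numpy 2.4.6, pandas 2.3.3, scipy 1.17.1 and matplotlib 3.10.9 did the rest.

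The split, the gene lists and the rule for named genes were chosen with earlier results of these data known. The rule took the 5 nearest genes with a named probe set on each side. It took the 12 with smallest p within 600 places and 5 on the rest of chromosome 2. From other chromosomes came the 10 with smallest p in each direction and 10 of those with their strongest split on chromosome 2. Called organelle genes and list members, the 5 smallest interaction p and the bimodal genes of chromosome 2 completed the rule. A gene with several probe sets took the one with the smallest p. AT2G24300, AT1G14950, AT2G28400 and LHCB4.2 were named after their values were seen. Alternatives were no letter, other covariates, lines of one letter, the signal as a score, the splits of neighbouring bimodal genes, a filter at a mean of 5 log2, centred arrays, array weights, other windows, and lines or arrays left out.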

Additional observations from a re-analysis of the deposited data

How the results depend on the processing

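A similar share of calls need not be made up of the same genes. At the splits of AT2G29995 and AFR many calls of the main comparison were lost and others gained. Among unlinked genes, most calls of the main comparison were lost at the AT2G29995 split, while most were kept at the AFR split. At each of these splits many unlinked genes were called that the main comparison had not called. The set of unlinked genes called therefore depends strongly on which gene of the region defines the split. Over the alternatives, the share of tested probe sets that was called kept within 1.5 times its value except as follows. With 10 principal components as covariates 2.39% of all and 0.949% of unlinked probe sets were called, in place of 4.01% and 2.36%. With the splits of AT4G02540 and AT1G23960 as covariates 1.48% of unlinked ones were called. The AT2G28130 signal as a continuous score called 6.87% of all and 5.24% of unlinked ones. Q lines alone called 0.725% of all, 3.96% on chromosome 2, 14.2% within 600 places and 0.0806% of unlinked ones, and R lines alone 1.77%, 6.46% on chromosome 2 and 0.869% of unlinked ones; both use fewer lines. A filter at a mean of 5 log2 called 6.61% of all, 19.2% on chromosome 2, 38.7% within 600 places and 4.27% of unlinked ones, with 14171 in place of 22745 probe sets tested and 937 in place of 912 called. The causes of the other shifts were not tested. A window of 200 places held 30 calls (19.4%). Leaving out R162 was chosen after seeing the data and gave 818 calls in all and 223 unlinked. Without the uncertain line R155 290 unlinked genes were called, and with array weights 367. Among the genes named and called at first, 741 comparisons with an alternative kept direction and call, 89 kept the direction and lost the call, and none changed sign. The interaction count stayed at 0 in the 3 alternatives run. No paired analysis was possible because each line is a genotype of its own and line numbers do not pair Q with R lines. Signal over background was not used here, so limits at low signal are unknown.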

Other observations

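Among called unlinked genes that the rule for named genes left out, the 12 with the largest differences are given here, with AGL67, chosen after their values were seen. They are not the largest of all: besides AT1G14930 and AT1G14940, the named genes AT3G15670 (-0.45), AT5G55750 (-0.44), AT4G04760 (-0.41) and AT3G17130 (-0.40), all lower in upper lines, differed by more than 4 of the 12. AT3G60730, of the pectin methylesterase family, had 8.67, 10.99 and 12.13 log2 as lowest, median and highest value in upper lines, against 10.08, 11.54 and 12.42 in lower lines (-0.49, limma, adjusted p = 0.00115). AT3G56350, a superoxide dismutase gene, had 8.46, 10.64 and 11.89 in upper lines, against 10.04, 11.06 and 12.01 in lower lines (-0.46, adjusted p = 0.000531). In both, the lowest upper line lay more than 1 log2 under the lowest lower line, while the highest values of the groups were closer.

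AT1G47980, a desiccation-related type of gene, had 7.35, 9.18 and 10.41 in upper lines, against 8.31, 9.48 and 10.70 in lower lines (-0.40, adjusted p = 0.0425), and the MADS box gene AGL67 differed by -0.21 (adjusted p = 0.0218). Both lie on chromosome 1, as do their strongest splits, AT1G48580 for AT1G47980 and AT1G80960 for AGL67. AT1G72570, of the AP2 family of transcription factors, differed by -0.49, AT3G19920 by -0.50 and AT3G05260 by -0.40, each with AT2G28130 as its strongest split. The neighbours AT3G21380, a jacalin-type lectin gene, and BGLU19, a beta-glucosidase gene, differed by -0.48 and -0.47, and for both the strongest split was AT1G17860 on chromosome 1. The methyltransferase gene NAMT1 (-0.46) had its strongest split at AT5G03420 on chromosome 5, and AT4G18920 (-0.46) and AT3G26140 (-0.36) at AT5G38780. AT1G33055 was higher, by 0.37, and its strongest split was AT4G02540.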
